A study of Homo sapiens with 6 samples.

Results

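The mucins MUC1, MUC4, MUC13, MUC15, MUC16, and MUC20 and the carcinoembryonic antigen-related cell adhesion molecules CEACAM1, CEACAM5, CEACAM6, and CEACAM7 were examined in oral squamous cell carcinoma (OSCC) cells after knockdown of the long noncoding RNA DLEU1. Every array probe whose gene name was 1 of these was taken, which gave 17 probes for 10 genes, out of 50599 probes and 36337 names in all. HSC-3, KON, and Ca9-22, which are established OSCC cell lines, were each transfected with a control siRNA (siCtrl) or with siDLEU1-2, an siRNA against DLEU1. RNA was collected 72 h later, and each line and siRNA gave 1 one-color Agilent array, so that replication comes from the 3 lines alone and no error can be given for a change seen in a single line. No untransfected cells were analyzed here, and 1 siRNA against DLEU1 was used on the arrays.

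Membrane mucins are large glycoproteins of the epithelial surface whose serine- and threonine-rich domains, often built of tandem repeats, carry dense O-linked sugar chains. Most are anchored by a single membrane-spanning segment, lubricate and shield the cell surface, and can signal through receptor tyrosine kinases, as MUC1 does with EGFR and MUC4 with ERBB2. CEACAM proteins belong to the immunoglobulin superfamily and mediate adhesion between cells. CEACAM1 spans the membrane and can carry inhibitory signaling motifs, whereas CEACAM5, CEACAM6, and CEACAM7 are held by a lipid anchor, and CEACAM5 is the carcinoembryonic antigen measured as a serum tumor marker.

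The 4 MUC4 probes are printed first, since they read separate stretches of 1 gene and gave separate results. Each is 60 bases long, 5′ to 3′, as listed in the scanner files, and capitals mark runs of at least 12 bases that it shares with another MUC4 probe.
A_24_P208825: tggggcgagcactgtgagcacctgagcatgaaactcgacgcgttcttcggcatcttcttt
A_33_P3417281: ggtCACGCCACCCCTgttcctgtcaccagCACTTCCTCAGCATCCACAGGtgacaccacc
A_24_P239176: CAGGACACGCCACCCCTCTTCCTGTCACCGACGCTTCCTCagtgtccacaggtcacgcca
A_24_P239177: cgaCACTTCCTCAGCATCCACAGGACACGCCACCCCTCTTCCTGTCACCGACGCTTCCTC
MUC4 lies on the minus strand of chromosome 3 (hg19, the build of the files), and the probes lie at chr3:195474164-195474223, chr3:195506310-195506369, chr3:195514760-195514819, and chr3:195514780-195514839 in this order. A_24_P208825, assigned to the transcript NM_018406, is therefore the most 3′ probe and shares no such run with the others. The remaining 3 probes read a tandem repeat with a period of 48 bases. Of the 12 bases of a probe that can be compared with the base 48 positions later, 10 were equal in A_33_P3417281 and 11 in each of A_24_P239176 and A_24_P239177, against 2 in A_24_P208825. A_24_P239176 and A_24_P239177 overlap by 40 bases, so they are not independent readings. No probe of another gene on the array shared a run of 20 bases with any of the 4.

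A probe is called detected on an array here where the scanner software marked it as well above background. By this measure, 13 of the 17 probes were detected on at least 1 array, and they represent 8 genes. CEACAM5 and MUC13 were detected on no array. A probe was tested only where each of the 3 lines had it detected after siCtrl, siDLEU1-2, or both. Only 7 of the 17 probes passed, and they represent MUC1, MUC4, and CEACAM1. The arrays were alike in depth, with 43.0% to 45.7% of all probes detected, a lowest detectable signal of 16.6 to 24.9, and a 75th percentile of the signal of 200 to 257. Signal here is the processed brightness of a spot on a linear scale, and fold changes are siDLEU1-2 over siCtrl after subtraction of each array's own 75th percentile from its log2 signals. Values of a line are given with siCtrl first and siDLEU1-2 second. The probe for DLEU1 fell by 3.72 on the log2 scale (adjusted p = 0.0227 from limma). The 8 squamous epithelial marker genes were all detected on some array.

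**Figure D1:**
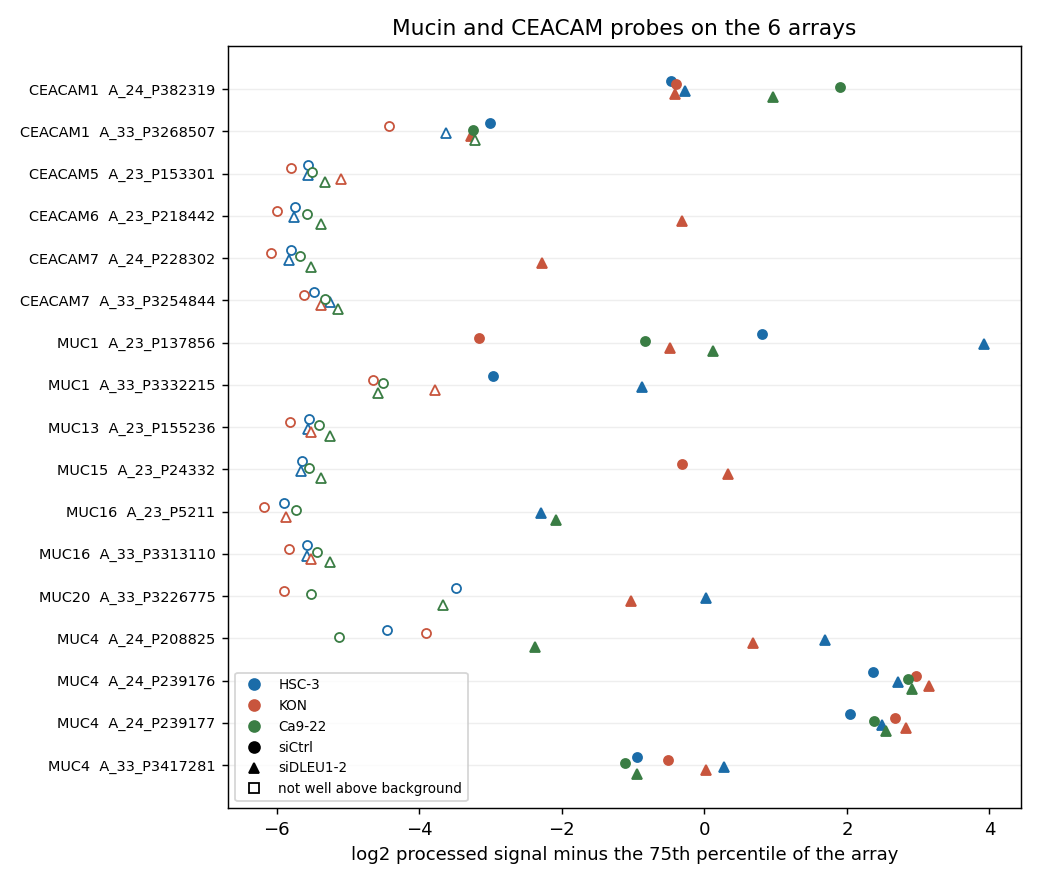
Normalized level of each of the 17 probes on the 6 arrays, on the x axis as log2 processed signal minus the 75th percentile of the array. Colors mark the cell lines, circles siCtrl, triangles siDLEU1-2, and open symbols values not well above background. CEACAM5 and MUC13 have open symbols only, and levels are comparable along a row but not between rows.

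After DLEU1 knockdown, 5 member genes had a probe that was detected only on siDLEU1-2 arrays, and no member probe was called lower by limma. Those 5 genes were MUC4, MUC16, MUC20, CEACAM6, and CEACAM7. No member probe was detected on siCtrl arrays only. Over all 50599 probes, 3.69% were detected on siDLEU1-2 arrays only and 4.33% on siCtrl arrays only. limma called 1 of the 7 tested member probes, the 3′ probe of MUC4, higher and 0 lower at an adjusted p below 0.05. Of all 19956 probes tested, it called 3.98% higher and 4.52% lower. The median log2 fold change was 0.26 for the 7 probes and 0.007 for all probes tested. At an unadjusted p below 0.05, 3 of the 7 member probes were higher and 0 lower, while 14.6% of all probes tested were higher and 14.9% lower. The 7 probes include 4 of MUC4, and the probe called passed the filter through its siDLEU1-2 arrays alone. These counts are therefore a description of the genes and not a test of the set. Without HSC-3 or without KON, limma called 0 of all probes, where 4547 and 4676 passed at an unadjusted p below 0.05. Without the cell line as a block it also called 0, with 1357 passing unadjusted, and without Ca9-22 it called 127 higher and 117 lower. A fit with 2 lines has 1 residual degree of freedom, so the lost calls do not show smaller changes. In bulk RNA, a smaller number of cells with a transcript and a lower amount per cell cannot be told apart.

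**Figure D2:**
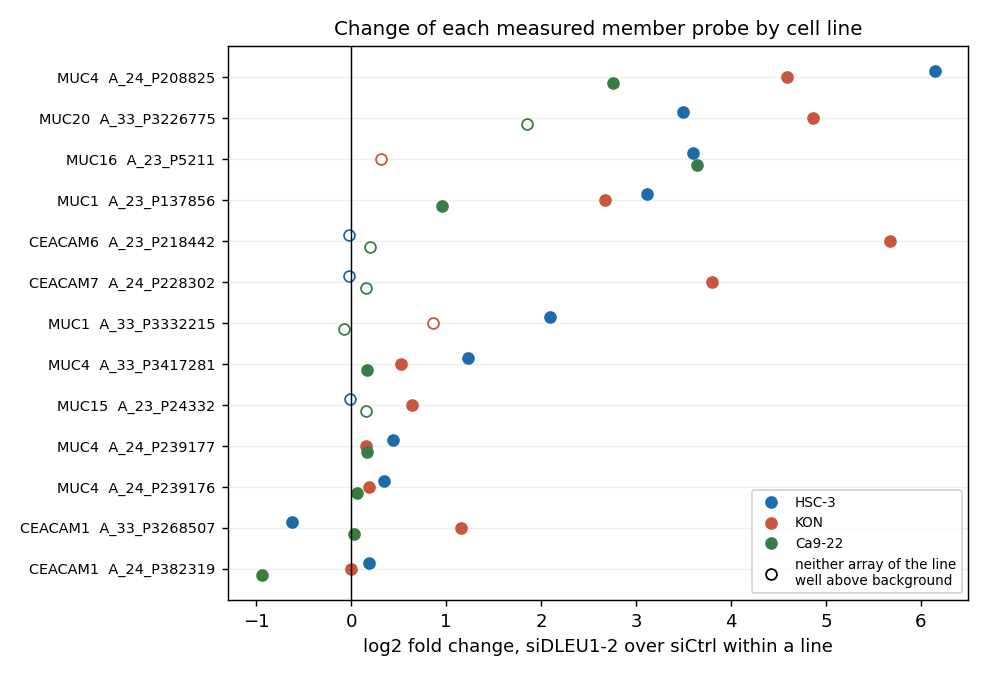
Log2 fold change within each cell line (x axis) for the 13 member probes detected on at least 1 array, ordered by their mean over the lines. Open circles mark lines in which neither array had the probe well above background. MUC4 A_24_P208825 lies to the right of 2 in all 3 lines, whereas MUC16 stands out in HSC-3 and Ca9-22, and CEACAM6 and CEACAM7 in KON.

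MUC4 encodes a very large membrane mucin that associates with ERBB2. With the 3′ probe A_24_P208825, the signal went from 9.96 to 650.3 in HSC-3, from 17.2 to 394 in KON, and from 7.20 to 46.9 in Ca9-22. All siDLEU1-2 values lay above all siCtrl values, and the probe was detected on 3 of 3 siDLEU1-2 arrays and 0 of 3 siCtrl arrays. Because the siCtrl values were not well above background, the fold change has only a lower bound. Over the lines, the level after siDLEU1-2 was at least 12.4-fold higher, with bounds of 2.10-fold for Ca9-22, 23.2-fold for KON, and 38.8-fold for HSC-3. Such a bound sets the bright value against the lowest detectable signal of the dim array, or against the value measured there where that is higher. That lowest signal is the one of the dimmest detected probe on the array. Some undetected probes read above it, so the bounds given here and below are not strict minima. With the siCtrl values taken as measured, the log2 fold changes were 6.15, 4.59, and 2.76, with a mean of 4.50 ± 1.70 (SD over the 3 lines) and an adjusted p of 0.032 from limma. Both the mean and the p rest on values at background, and the probe entered the test through its siDLEU1-2 arrays alone. Of the 7 tested member probes, only this one was over 2-fold higher in all 3 lines as measured, and 2.08% of all probes tested were higher and 2.08% lower by the same rule. The call by limma was lost without HSC-3 (mean 3.67, adjusted p = 0.0828) and without KON (4.45, 0.128), and without the cell line as a block (0.315) at the same mean of 4.50. With normexp background correction the mean was 2.22 (0.0533). The call was also lost with dim values raised to the lowest detectable signal (mean 3.63, adjusted p = 0.0614 from limma) and, at the same mean, without a filter on dim probes (0.153), with detection on at least 1 array (0.126), and with the methods' t-test (0.594).

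The repeat probes of MUC4 were detected on all 6 arrays, those after siCtrl included. The signal of A_24_P239176 went from 1125 to 1320 in HSC-3, from 2010 to 2176 in KON, and from 1821 to 1833 in Ca9-22. The mean log2 fold change of 0.20 ± 0.15 (SD over the 3 lines) did not pass the test (limma, adjusted p = 0.41). A_24_P239177, which overlaps it, went from 898 to 1126, from 1635 to 1737, and from 1309 to 1422 in the same order of lines. The mean here was 0.26 ± 0.16, which did not pass the test either (adjusted p = 0.306 from limma). For both, the ranges of the siCtrl and siDLEU1-2 signals overlapped, and the lowest pair was that of HSC-3. A_33_P3417281, the repeat probe closer to the 3′ end, went from 113 to 243.6 in HSC-3, from 181 to 247.5 in KON, and from 116 to 126.5 in Ca9-22. Its log2 fold changes were 1.23, 0.52, and 0.17, with a mean of 0.64 ± 0.54 (adjusted p = 0.166 from limma). All 3 repeat probes thus had their largest change in HSC-3, and in Ca9-22 their log2 fold changes lay between 0.06 and 0.17. For the 3′ probe, the bounds give no order of the lines. Whether transcripts that hold the repeat but not the 3′ end, or other RNA, gave the repeat signal was not tested.

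**Figure D3:**
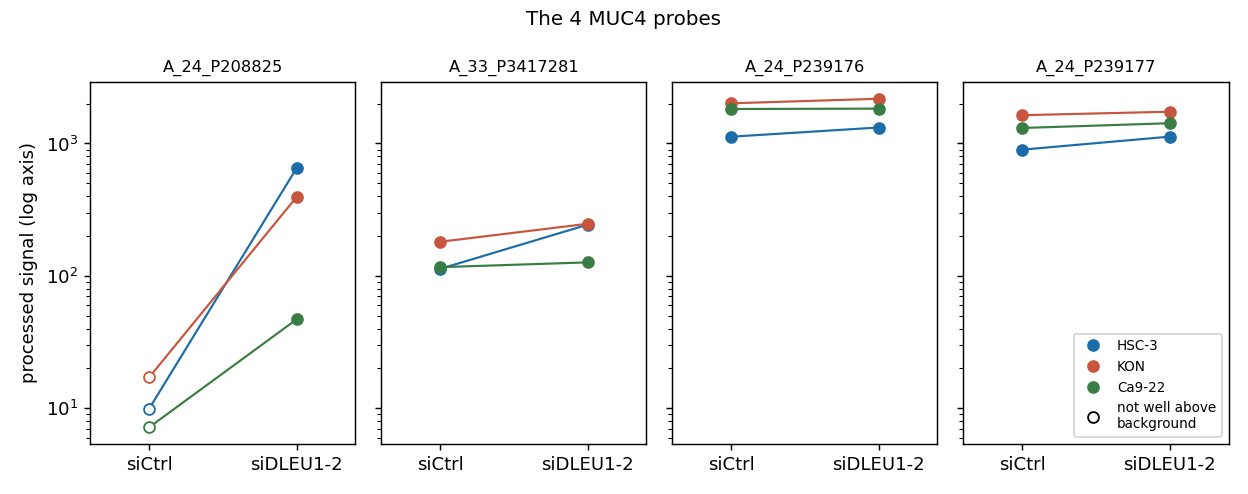
Processed signal of the 4 MUC4 probes (y axis, log scale) after siCtrl and siDLEU1-2, with 1 line per cell line and the probes ordered from the 3′ end of the gene on the left. Open circles were not well above background. The 3′ probe rises from open circles in all 3 lines, while the other 3 probes were detected on all 6 arrays and changed by at most 1.23 on the log2 scale.

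MUC20, which neighbors MUC4 on chromosome 3 and encodes a mucin that binds the receptor MET, was measured by 1 probe at chr3:195464463-195464522. Its signal went from 19.5 to 203.5 in HSC-3, from 4.32 to 119.9 in KON, and from 5.48 to 19.2 in Ca9-22. It was detected only after siDLEU1-2 in HSC-3 and KON, where it was at least 11.3-fold and 7.05-fold higher. In Ca9-22, neither array detected it. The probe was therefore not tested by limma, although its measured values were over 2-fold higher in all 3 lines. After siDLEU1-2, HSC-3 was at least 9.92-fold and KON at least 4.79-fold above Ca9-22.

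Within 250 kb of the MUC4 and MUC20 probes, 32 probes of 19 other gene names were measured and 15 of them tested. limma called none of the 15, and none of the 32 was detected on siDLEU1-2 arrays only. XLOC_l2_010064, a transcript whose probe starts at 195476705, between the 3′ probe and the repeat probes of MUC4, was named after its values were seen. Its signal went from 272 to 572 in HSC-3, from 4.94 to 143.5 in KON, and from 6.37 to 6.92 in Ca9-22. It was detected in both arrays of HSC-3 and in KON after siDLEU1-2, and it was not tested.

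MUC1 encodes a membrane mucin whose cytoplasmic tail binds signaling proteins. Its main probe A_23_P137856, assigned to NM_002456, spans chr1:155158652-155159726 and was detected on all 6 arrays. The signal went from 382 to 3055 in HSC-3, from 28.8 to 175 in KON, and from 142 to 266 in Ca9-22. It was higher after siDLEU1-2 in each of the 3 lines, although the ranges of the groups overlapped because the lines differed in level. The log2 fold changes were 3.12, 2.68, and 0.96, and their mean of 2.25 ± 1.14 (SD over the 3 lines) did not pass the threshold (adjusted p = 0.0533 from limma, unadjusted p = 0.00494). It passed with quantile normalization (limma, adjusted p = 0.0492), among probes detected on all 6 arrays (0.0366), with dim values raised to the lowest detectable signal (0.0452), and without Ca9-22 (mean 2.90, 0.0467). Under the other alternatives it did not pass. The mean was 1.82 without HSC-3 (limma, adjusted p = 0.151), 2.04 without KON (0.183), and 1.58 with normexp (0.0708), and the adjusted p was 0.201 without a filter and 0.972 without the block.

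Between the lines, averaged over both siRNAs, MUC1 was highest in HSC-3. All p-values between lines treat the arrays of a line after both siRNAs as its replicates, since no line and siRNA had a replicate array. KON was 18.2-fold lower than HSC-3 (log2 difference -4.19, adjusted p = 0.00991 from limma) and Ca9-22 was 6.59-fold lower (-2.72, adjusted p = 0.0231). Ca9-22 and KON differed by 1.47, which did not pass the test (adjusted p = 0.104 from limma). The difference of Ca9-22 from HSC-3 did not pass without a filter on dim probes (limma, adjusted p = 0.0658) or with detection on at least 1 array (0.054). MUC1 and CEACAM1 gave all 4 calls of member probes between lines. limma called 36.2% of all probes between KON and HSC-3, 36.6% between Ca9-22 and HSC-3, and 33.2% between Ca9-22 and KON, so a call between lines was common. With normexp background correction, the overlapping repeat probes of MUC4 were also called higher in KON than in HSC-3 (log2 differences 0.55 and 0.47).

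The second MUC1 probe, A_33_P3332215 at chr1:155161975-155162034, is assigned to NM_001044392. It was detected only in HSC-3, where the signal went from 28.0 to 109.9, a log2 difference of 2.09. Its values in KON and Ca9-22 lay between 10.2 and 17.8. Both MUC1 probes thus had their highest level in HSC-3, and the change of the second probe in KON and Ca9-22 is not known. Near MUC1, 49 probes of 36 other gene names lay within 250 kb, of which 36 were tested, 0 called higher, and 1 called lower (ASH1L).

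MUC16 encodes the protein that carries the CA125 antigen. Its probe A_23_P5211 spans chr19:8966801-8968923. The signal went from 3.67 to 40.9 in HSC-3, from 3.56 to 4.20 in KON, and from 4.75 to 57.5 in Ca9-22. It was detected only after siDLEU1-2 in HSC-3 and Ca9-22, where it was at least 2.44-fold and 2.57-fold higher. KON stayed at background after both siRNAs, at least 2.34-fold below HSC-3 and 2.71-fold below Ca9-22 after siDLEU1-2. The second probe, A_33_P3313110 at chr19:9060452-9060511, was detected on no array, with signals from 4.21 to 6.41. The difference in MUC16 therefore rests on 1 probe and on signals within a few fold of the lowest detectable level. Near MUC16, 13 probes of 13 other gene names lay within 250 kb, of which 3 were tested, 0 called higher, and 1 called lower (ZNF317).

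MUC15 was found in KON only. Its probe at chr11:26582464-26582523 went from 207.5 to 308.7 in KON and lay between 3.98 and 5.84 on the other 4 arrays. After siCtrl, KON was at least 9.67-fold above HSC-3 and at least 8.78-fold above Ca9-22. After siDLEU1-2, these bounds were 15.2-fold and 12.3-fold. The log2 difference between the siRNAs within KON was 0.64 and has no error. ANO3, a neighboring gene named after its values were seen, was also detected in KON only, with signals of 121 and 222. MUC13, a mucin of the gut epithelium, had signals from 4.26 to 6.36.

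CEACAM1 was measured in every line, and 1 of its 2 probes was higher in Ca9-22 than in the other lines. A_24_P382319, assigned to NM_001712 at chr19:43011504-43011563, was detected on all 6 arrays. The signal went from 158 to 166.5 in HSC-3, from 194 to 184 in KON, and from 940.3 to 473 in Ca9-22. Both Ca9-22 values exceeded all 4 values of the other lines. Averaged over the siRNAs, Ca9-22 was 3.47-fold above HSC-3 (log2 difference 1.80, adjusted p = 0.0176 from limma) and 3.57-fold above KON (1.84, adjusted p = 0.018). KON and HSC-3 differed by -0.04 (limma, adjusted p = 0.929), a value that turned to 0.03 with centering on the probes detected on all arrays. Without a filter on dim probes, the calls for Ca9-22 were lost (adjusted p = 0.0532 and 0.0514 by limma). The log2 fold changes after DLEU1 knockdown were 0.19, -0.005, and -0.94 in this order, and their mean of -0.25 ± 0.61 (SD over the 3 lines) did not pass the test (limma, adjusted p = 0.573). The mean turned to 0.09 without Ca9-22. A_33_P3268507, assigned to NM_001184816 at chr19:43025455-43025514, was detected on 3 arrays. Its signals ranged from 11.97 to 27.1, and its mean log2 fold change, partly from values at background, was 0.19 ± 0.90 (limma, adjusted p = 0.774). With this probe, Ca9-22 differed from HSC-3 by 0.09 (limma, adjusted p = 0.884) and from KON by 0.62 (0.328), and neither passed the test. This mean turned to -0.30 without KON.

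CEACAM6 and CEACAM7, which lie in 1 cluster on chromosome 19 with CEACAM5, were detected on a single array, that of KON after siDLEU1-2. CEACAM6 at chr19:42275434-42275493 had a signal of 196 there and 4.03 in KON after siCtrl, and between 3.70 and 5.87 in the other lines. The level in KON after siDLEU1-2 was at least 11.5-fold that after siCtrl. CEACAM7 at chr19:42178108-42178167 had 50.6 there and 3.82 after siCtrl, at least 2.97-fold higher, and between 3.55 and 5.30 in the other lines. Its second probe A_33_P3254844, at chr19:42178454-42178513, was detected on no array (4.87 to 6.88). CEACAM5 at chr19:42224984-42225043 had 4.62 and 7.14 in KON, of which neither was detected. Each of these differences rests on 1 array and was not tested.

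Sequences upstream of the start sites of the 3 genes are given because 2 of them were detected in KON after siDLEU1-2 while the third was detected on no array. Shown are the 250 bases before the annotated start, on the strand of the gene, from RefSeq on GRCh38.p14, with capitals for 4 motifs searched on both strands. These were CACGTG for the E-box, GGGCGG for the binding motif of Sp1, TGACTCA for that of AP-1, and TATAAA for the TATA element.
CEACAM5: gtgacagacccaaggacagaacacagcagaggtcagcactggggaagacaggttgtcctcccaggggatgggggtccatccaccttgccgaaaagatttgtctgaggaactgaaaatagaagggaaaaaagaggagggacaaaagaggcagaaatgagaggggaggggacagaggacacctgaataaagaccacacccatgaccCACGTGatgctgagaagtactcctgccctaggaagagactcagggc
CEACAM6: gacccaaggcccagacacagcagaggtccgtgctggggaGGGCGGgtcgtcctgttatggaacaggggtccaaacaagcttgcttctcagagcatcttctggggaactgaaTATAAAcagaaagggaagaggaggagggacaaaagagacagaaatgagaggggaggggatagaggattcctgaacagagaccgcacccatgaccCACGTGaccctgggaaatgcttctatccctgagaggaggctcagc
CEACAM7: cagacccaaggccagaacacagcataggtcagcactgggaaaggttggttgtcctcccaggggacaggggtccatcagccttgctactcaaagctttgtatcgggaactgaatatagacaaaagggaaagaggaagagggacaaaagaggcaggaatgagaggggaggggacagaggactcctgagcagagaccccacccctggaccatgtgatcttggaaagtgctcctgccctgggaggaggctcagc
The stretches lie at chr19:41708376-41708625 on the plus strand for CEACAM5, at chr19:41755280-41755529 on the plus strand for CEACAM6, and at chr19:41688271-41688520 on the minus strand for CEACAM7. After alignment, CEACAM7 was identical to CEACAM5 at 82.4% and to CEACAM6 at 79.6% of the 250 bases, and CEACAM5 and CEACAM6 at 76.0%. To CEACAM1, the identity was 72.8% for CEACAM7, 70.8% for CEACAM6, and 68.0% for CEACAM5. CACGTG was found upstream of CEACAM5 and CEACAM6 and in 6.34% of all 35116 promoters of the table. GGGCGG was found in CEACAM6 but not in CEACAM5 or CEACAM7, and in 42.64% of all promoters, and TATAAA likewise in CEACAM6 and in 10.72%. TGACTCA was in none of the 3 and in 4.2% of all. By these exact letters, none of the 4 motifs was found in both CEACAM6 and CEACAM7. Other forms of the E-box and of the other motifs were not searched. Any part of these stretches in the detection in KON was not tested.

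Within 250 kb of the CEACAM5, CEACAM6, and CEACAM7 probes, 33 probes of 23 other gene names were measured. limma called none of the 13 that were tested, and 3 of the 33 were detected on siDLEU1-2 arrays only. In KON, a probe of LOC100505495 at 42006494 had a signal of 7.09 after siCtrl and 69.2 after siDLEU1-2, and in Ca9-22 CEACAM3, a granulocyte receptor, had 6.44 and 250.4. Each was detected on that siDLEU1-2 array alone. THC2767512, the other of the 3, was detected in Ca9-22, where it went from 28.5 to 56.3. These genes were named after their values were seen. Other probes of CEACAM3 and LOC100505495 differed from those named. The second CEACAM3 probe was detected on no array and went from 10.6 to 5.14 in Ca9-22, and the LOC100505495 probe that was detected on all 6 arrays went from 83.8 to 95.8 in KON. Around CEACAM1, 18 probes of 15 other gene names lay within 250 kb, of which 10 were tested, 1 called higher (PSG8), and 1 called lower (PAFAH1B3), and 4 of the 18 were detected on siDLEU1-2 arrays only. Those 4 include A_24_P392110 and A_24_P357726 of PSG8, which are counted again below. Over all probes on the array, 3.69% were detected on siDLEU1-2 arrays only.

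Among the other CEACAM genes, which include the pregnancy-specific glycoproteins (PSG) normally secreted by the placenta, 3 of 24 probes were tested, of which 1 was called higher and 0 lower. The probe called was PSG8 A_21_P0011781, with log2 fold changes of 2.65 in HSC-3 and 2.34 in Ca9-22. In KON it was detected after siDLEU1-2 only and was at least 1.47-fold higher. With the KON value as measured, the mean was 2.21 ± 0.51 (limma, adjusted p = 0.0247). The other PSG probes were examined after this value was seen. Of 12 PSG probes for 8 genes, 1 was detected in HSC-3 after siCtrl and 8 after siDLEU1-2. In Ca9-22, the counts were 2 and 4, and in KON 0 and 1. PSG6, for example, had signals of 4.82 and 125 in HSC-3, 12.8 and 97.8 in Ca9-22, and 4.77 and 5.67 in KON. PSG11 went the other way in Ca9-22, from 68.3 to 5.65. MUC16 was likewise detected in HSC-3 and Ca9-22 and not in KON, whereas CEACAM6 and CEACAM7 were detected in KON alone. The PSG genes are close copies of each other, and their probes may read more than 1 of them.

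**Figure D4:**
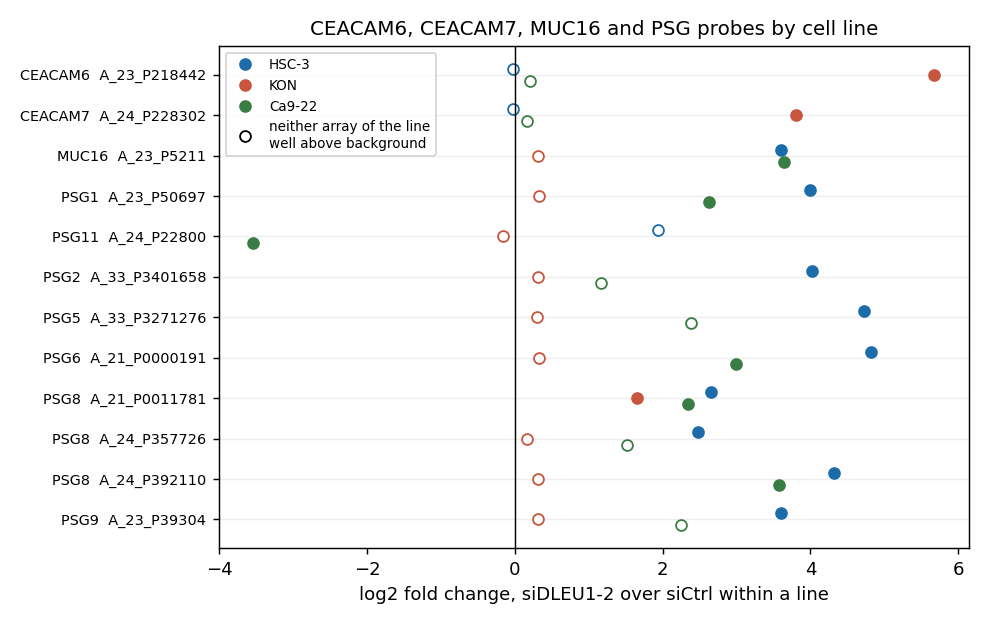
Log2 fold change within each line (x axis) for CEACAM6, CEACAM7, and MUC16 and for the 9 PSG probes detected on at least 1 array. Open circles mark lines in which neither array had the probe well above background. CEACAM6 and CEACAM7 have their only filled circle in KON, and the PSG probes other than A_21_P0011781 of PSG8 have open circles in KON.

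Genes that act with mucins are given by their counts, beside the 3.98% called higher and 4.52% called lower of all probes tested. Of the 16 other mucin genes, 6 of 32 probes were tested and 0 were called in either direction. Among them, MUC2 and MUC6 were measured on at least 5 arrays and gave mean log2 fold changes between -0.24 and 0.22. Of the enzymes that extend mucin O-glycans, 17 of 26 probes were tested, with 0 called higher and 1 called lower. The latter was ST6GALNAC2, a sialyltransferase that caps O-glycan cores, with a mean log2 fold change of -1.38 ± 0.25 (limma, adjusted p = 0.0257). C1GALT1, which builds the core 1 structure, gave 1.26 with 1 probe (adjusted p = 0.0518 from limma) and 0.21 and 0.35 with the other two.

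Of the binding partners, ligands, and sheddases of these glycoproteins, 23 of 27 probes were tested, with 1 called higher and 2 called lower. ADAM17, a sheddase of MUC1, rose by 0.83 ± 0.19 on the log2 scale (adjusted p = 0.0453 from limma). ERBB3 fell by 0.82 with A_23_P349416 (adjusted p = 0.0404 from limma) while its second tested probe gave -0.12 (0.663). EGFR fell by 0.78 with A_33_P3351955 (adjusted p = 0.0455 from limma), and its other probes gave -1.02 (0.121) and 0.42 (0.155). ERBB2, the partner of MUC4, gave -0.57 with each of its probes (adjusted p = 0.132 and 0.235 from limma). The probes of 1 gene thus differed for EGFR and ERBB3, and no direction is given for these genes as a whole.

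Of the transcription factors of mucin-bearing epithelium, 9 of 21 probes were tested, with 0 called higher and 1 lower. FOXA2 fell by 1.23 ± 0.32 on the log2 scale (limma, adjusted p = 0.032), with a value in Ca9-22 after siDLEU1-2 that was not well above background. The median over the 9 probes was 0.75, and KLF5, EHF, ELF3, FOXA1, and GATA6 gave means between 0.75 and 1.07, none of which passed the test. These uncalled genes were named after their values were seen, and the values of the remaining tested genes are not given.

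Marker lists of cell types were read beside these values. Of the squamous epithelial markers, 10 of 11 probes were tested, with 0 called higher and 5 lower, those of KRT6A, DSC3, DSG3, SFN, and TP63. Their summed level, in units of the 75th percentile of an array, ranged from 395 to 1400 after siCtrl and from 261 to 650 after siDLEU1-2. For the 5 fibroblast markers, COL1A1 was called higher (1.45 ± 0.57, adjusted p = 0.0423 from limma), DCN was detected on 1 array, and COL1A2, COL3A1, and LUM on none, with sums from 0.738 to 0.898 and from 1.73 to 2.93. No probe of the leukocyte, endothelial, or goblet cell markers was called. The goblet cell sums were 0.77 to 1.04 and 0.937 to 1.09, and CLCA1 and TFF3 were detected on no array. The leukocyte sums, most of them from CD14 and CD79A, were 4.64 to 53.6 and 4.77 to 70.0, and the endothelial sums were 0.312 to 0.945 and 0.485 to 1.78. The part of any of these in the changes of the mucins and CEACAM genes was not tested.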

How the data were processed

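The authors deposited the scanner output of Agilent Feature Extraction (version 10.7 per the labels), whose processed signal is a background-subtracted and detrended intensity without normalization between arrays. Gene names and hg19 probe coordinates are those of the files, and RefSeq names and promoters are those of GRCh38.p14. The methods name GeneSpring GX, and the normalization is not given in the sources used here.

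Outlier and control spots were left out, spots of a probe were averaged, and the 75th percentile of an array was subtracted from its log2 signals. Detection of a probe required the software's mark on 50% or more of its spots. limma 3.58.1 (R 4.3.3) was fitted to 19956 probes with siRNA and cell line as terms, with Benjamini-Hochberg adjustment, and 55 probes were left out for want of a usable spot. The pairing comes from the cell lines, and deviations of paired arrays correlated at 0.813 to 0.828. Scripts were tested on simulated data. Spots of the probes with 10 spots had a median SD within an array of 0.055 to 0.063 above a signal of 64 and of 0.188 to 0.238 below it, and the number of arrays limits the precision.

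The members, gene lists, and tests were chosen with earlier results of these data known. Every member was named, and from each list the genes with a called probe, while other genes were named after their values were seen. Genes resembling a member were to be sought for a called probe well above background on at least 5 arrays, and none qualified. The p-values of the knockdown measure the spread of the change between the lines. Those between lines treat the arrays of a line after both siRNAs as its replicates, and no line and siRNA had a replicate array.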

Additional observations from a re-analysis of the deposited data

Results flagged for a closer look

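Both CEACAM1 probes had measured differences of opposite direction between the cell lines. With A_24_P382319, the log2 fold change was 0.19 in HSC-3 and -0.94 in Ca9-22, a range of 1.13 over the lines, while KON lay at -0.005. With A_33_P3268507, each line was detected on 1 of its 2 arrays, so its values have only a bound. KON was at least 1.49-fold higher after siDLEU1-2. As measured, KON gave 1.16, Ca9-22 0.03, and HSC-3 -0.62, a range of 1.78 that rests on values at background. With 1 array per line and siRNA, these differences were not tested.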

How the results depend on the processing

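limma called 1 member probe higher by knockdown, and 2 with quantile normalization. The count was also 1 with detection on all 6 arrays and with dim values raised to the lowest detectable signal. There the probe called was A_23_P137856 of MUC1 and not the 3′ probe of MUC4. The count was 0 with normexp background correction, without a filter on dim probes, among probes detected on at least 1 array, with probes averaged by gene, without the replicate block for cell line, and with the methods' t-test. At an unadjusted p below 0.05, member counts higher were then 3, 4, 4, 2 (genes), 1, and 1, among 6068, 6816, 5547, 4518 (genes), 1357, and 1373 passing in either direction over all. Leaving out a line gave 0 to 2. Over all probes, 795 were called higher and 902 lower. Detection on at least 3 arrays gave 385 and 459, and leaving out a line gave 0 to 127 and 0 to 117. Both counts were 0 without a filter (6816 at an unadjusted p below 0.05), with detection on at least 1 array (5547), without the replicate block (1357), and with the t-test (1373).

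Over 2-fold in all lines, 1 member probe was higher. It was 2 with quantile normalization, no filter, or detection on at least 1 array, 0 with normexp, detection on all 6 arrays, or the gene mean, and 1 to 2 with a line left out. Between KON and HSC-3, 1 member probe was called, 3 with normexp, and 2 with no filter or detection on at least 1 array. Between Ca9-22 and HSC-3, 2 were called, 0 with no filter, and 1 with detection on at least 1 array or the gene mean. Between Ca9-22 and KON, 1 was called, and 2 with detection on at least 1 array.

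Directions turned only for values that were not called. CEACAM1 A_33_P3268507 between Ca9-22 and HSC-3 went from 0.09 to -0.129 (quantile), -0.0573 (median centering), and -0.0576 (normexp). MUC4 A_24_P239176 between Ca9-22 and KON went from -0.18 to 0.002 (quantile), MUC4 A_33_P3417281 between KON and HSC-3 from 0.09 to -0.0311 (median centering), and CEACAM1 A_24_P382319 between KON and HSC-3 from -0.04 to 0.0303 (percentile of detected probes). With a line left out, the knockdown values of CEACAM1 ranged from -0.297 to 0.592 for A_33_P3268507 and from -0.472 to 0.094 for A_24_P382319. The cause was not tested.

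A slide block was not fitted, since there is 1 slide. Of the 17 member probes, 10 were too dim to be tested.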
